A study of Mus musculus with 4 samples.

Results

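Chimeric Ago2 eCLIP-seq was used to ask which miRNAs were bound to the transcripts of 5 genes of the muscle sarcomere in mouse plantaris, namely Neb, Mybpc1, Mybpc2, Myom1 and Myom2. Neb encodes nebulin, a giant protein that lies along the thin filament. Mybpc1 and Mybpc2 encode the slow and fast skeletal forms of myosin binding protein C, which sits on the thick filament, and Myom1 and Myom2 encode the myomesins that cross-link thick filaments at the M-band. The members were all entries of the peak lists that overlapped the span of 1 of the 5 genes on its own strand, where an entry is 1 miRNA in 1 peak with its number of chimeric reads. There were 1654 such entries of 93468 in MOV control and 2099 of 100897 in MOV mimic.

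Both groups were plantaris muscles of adult 5-month-old male C57BL/6J mice after 10 days of mechanical overload (MOV), in which part of the synergist muscles is removed so that the plantaris carries more load. The MOV control muscle had received a control lentivirus and the MOV mimic muscle a lentivirus carrying a miR-1 mimic, both with a mouse CMV promoter and a TurboGFP reporter, which does not restrict expression to muscle fibres. The study injected the control on the left side and the mimic on the right, and whether both libraries came from the same mouse was not given in the sources used here. Each group had 1 library with peaks, and the 2 input libraries were not analysed here. Since a group held only 1 library, the groups could not be tested against each other. All intervals are exact 95% intervals for counting error only, so a difference describes these libraries and not the treatments.

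miRNAs guide Ago2 to RNA mainly through the seed, bases 2 to 8 of the mature miRNA. miR-1, miR-133 and miR-206 are the muscle miRNAs, and miR-1 and miR-206 share a seed. In the assay the miRNA is ligated to the RNA fragment under Ago2, so that 1 chimeric read names both the miRNA and its target. The reads on a gene depend on how much of its transcript the muscle holds as well as on how often that transcript is bound. In this bulk tissue, fewer cells of a type and less RNA per cell cannot be told apart.

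The 5 genes carried entries of 238 miRNA names, of which 204 matched a mature sequence of RefSeq (GRCm38.p6) and held 46.9% of the reads. The mature sequences below are some of those whose families supplied the most reads or led a site on 1 of the genes. Others that led a site, such as miR-24-3p at chr2:52179494-52179546 on Neb, are not listed. The sequences are written 5′ to 3′ with the seed in capitals.
miR-133b-3p: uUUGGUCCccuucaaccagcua
miR-206-3p: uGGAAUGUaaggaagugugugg
miR-23a-3p: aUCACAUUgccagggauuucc
miR-27a-3p: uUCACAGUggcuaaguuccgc
miR-27b-3p: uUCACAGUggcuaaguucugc
miR-26a-5p: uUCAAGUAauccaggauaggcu
miR-26b-5p: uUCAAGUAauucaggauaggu
miR-30a-5p: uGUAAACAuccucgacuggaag
miR-30c-5p: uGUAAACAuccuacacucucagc
miR-30e-5p: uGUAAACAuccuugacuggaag
let-7f-5p: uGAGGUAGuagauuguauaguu
miR-22-3p: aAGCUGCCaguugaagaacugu
In this build miR-206-3p lies at chr1:20679055-20679076 and miR-133b-3p at chr1:20682834-20682855, both on the plus strand. On chromosome 8, miR-23a-3p lies at chr8:84208563-84208583 and miR-27a-3p at chr8:84208727-84208747, also on the plus strand. miR-1a-3p, miR-133a-3p, miR-23b-3p, miR-378a-3p, miR-30b-5p, miR-30d-5p and miR-486b-5p are named without a sequence. Where family totals are given, names of a family were summed, and the families were chosen after the values had been seen.

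The 5 genes together held 4641 reads in MOV control, 1.997% of all chimeric reads, and 5698 in MOV mimic, 2.20%. The libraries held 232408 and 259207 chimeric reads, a ratio of 1.12 (1.11 to 1.12), against which each ratio of mimic to control below is read. Most entries were small. Of the entries on the 5 genes, 61.4% in MOV control and 61.6% in MOV mimic were below 1 read, and these held 8.08% and 7.89% of the reads. Over the whole libraries miR-1a-3p reads had a ratio of 1.31 (1.29 to 1.33).

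miR-133a-3p held more reads than any other miRNA on each of the 5 genes in both libraries. Its share was 34.3% of the reads on the 5 genes in MOV control (32.9 to 35.7) and 33.1% in MOV mimic (31.9 to 34.3), against 20.6% and 22.5% over the other nuclear entries. miR-1a-3p came next, with 10.6% in MOV control (9.71 to 11.5) and 13.3% in MOV mimic (12.5 to 14.2), against 9.32% and 10.9% elsewhere. miR-133b-3p held 9.93% and 8.89%, and miR-206-3p held 5.94% and 4.73%. The genes differed in how strongly miR-133 prevailed and in which family stood beside it. miR-133a and miR-133b together held 67.4% of the Myom2 reads in MOV control and 73.7% in MOV mimic, 63.7% and 55.5% of the Mybpc2 reads, and 44.4% and 42.3% of the Neb reads. On Myom1 they held 29.3% and 19.9%, and on Mybpc1 24.3% and 23.3%. The counting intervals of Myom2 and Mybpc2 overlapped in MOV control (62.5 to 72.1 and 56.7 to 69.9) but not in MOV mimic (69.5 to 77.7 and 49.6 to 61.4), and both lay above those of Neb, Mybpc1 and Myom1 in each library.

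**Figure D1:**
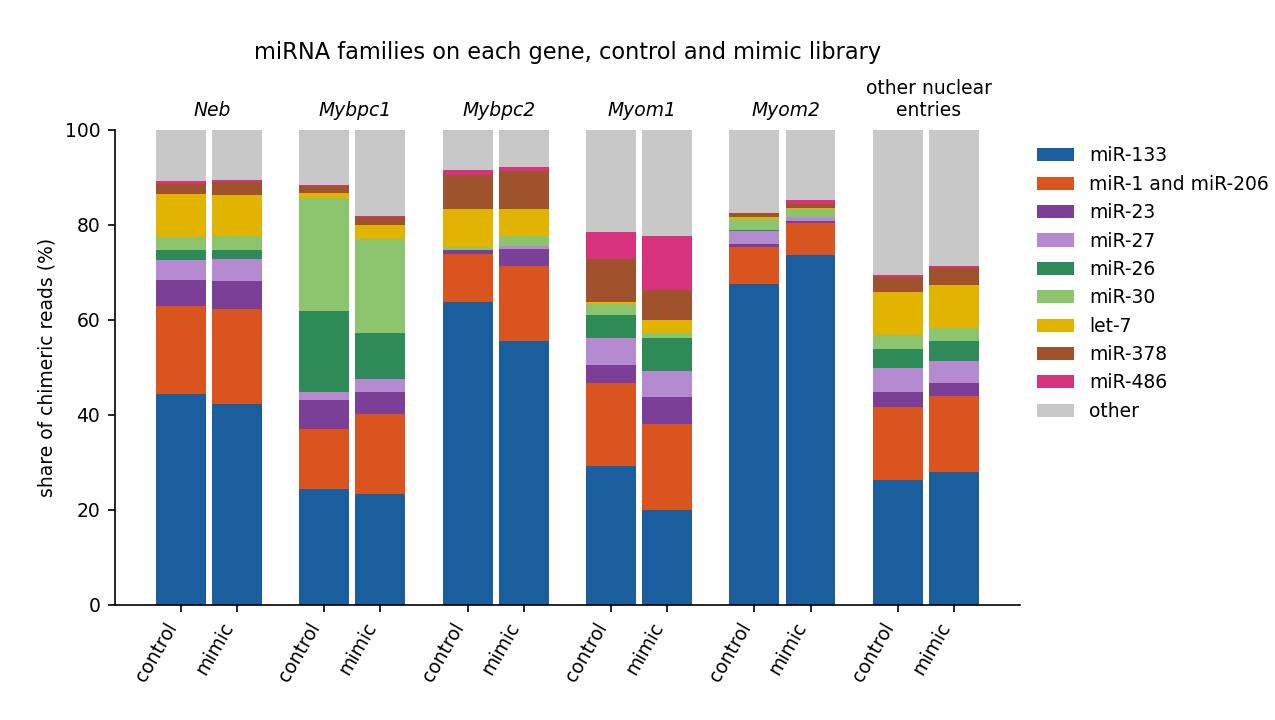
Share of the chimeric reads (%, vertical axis) held by each miRNA family on each gene, with a bar for the control library and a bar for the mimic library, and the other nuclear entries of both libraries at the right. miR-133 filled 67.4% and 73.7% of the Myom2 bars, miR-30 and miR-26 stood out on Mybpc1, and miR-486 was visible on Myom1 with 5.56% and 11.4%.

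Neb, on the minus strand at chr2:52136640-52338798 of GRCm38 (mm10), held most of the reads, 3279.6 in MOV control (3169 to 3394) and 3915 in MOV mimic (3793 to 4040). Per kb of its longest GENCODE transcript this was 146 and 174 reads, close to Mybpc1 with 135 and 193. Mybpc2 had 61.2 and 80.1 reads per kb, Myom2 had 75.7 and 92.5, and Myom1 had the lowest density with 40.9 and 48.4. Entries of 149 miRNAs were found on Neb in MOV control and of 156 in MOV mimic, with 108 in both, and without entries below 1 read there were 87 and 79. The same 5 miRNAs led in both libraries. miR-133a-3p held 1079.96 reads in MOV control and 1247 in MOV mimic, miR-1a-3p 382 and 557, miR-133b-3p 377 and 410.4, miR-206-3p 225 and 219, and miR-23a-3p 109 and 139.7.

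The Neb reads lay in 77 sites, where a site is a run of overlapping peaks from either library. Of these, 53 had a peak in both libraries, and they held 97.3% of the MOV control reads and 95.7% of the MOV mimic reads. The sites ran from 3.86 kb to 190.0 kb from the 5′ end of the gene. miR-133 had the most reads of the 9 named families at 31 sites, miR-1 and miR-206 at 20 and let-7 at 9. Sites led by a miRNA outside these families are still counted, and coloured in the figures, under a named family. At chr2:52197797-52197835, counted under miR-1 and miR-206, miR-22-3p held 61.1% and 49.0% of the reads. No single site prevailed, since the site with the most reads held 10.6% of the reads of the gene and the leading 5 held 38.3%.

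The Neb site with the most reads over both libraries, chr2:52281482-52281751, was a miR-133 site. It held 433 reads in MOV control (393 to 476) and 332 in MOV mimic, and miR-133 made up 81.6% and 78.2% of them. This was the site with the lowest ratio among the leading 5, at 0.767 (0.663 to 0.887). miR-26a-5p, with 22.7 and 19.1 reads, and miR-125b-5p, with 13.4 and 15.1, were found at the same site. The site joined 2 peaks in each library, and these reads are summed over both peaks. A site nearer the 5′ end, chr2:52291137-52291306, held 278 and 336 reads, of which miR-133a-3p supplied 118 and 149.

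miR-1a-3p and miR-206-3p met at another site, chr2:52210319-52210421, which lay 128 kb from the 5′ end. miR-1a-3p supplied 116 of its 218 reads in MOV control and 171 of its 287 reads in MOV mimic. miR-206-3p supplied 74.8 and 74.5. Together they held 87.7% and 85.5% of the reads of the site, while miR-133a-3p held 1.25% and 1.71%. Of all miR-1 and miR-206 reads on Neb, 31.4% in MOV control and 31.6% in MOV mimic lay there. miR-1a-3p entries were found at 65 sites of the gene, and the next in reads were chr2:52287057-52287135 with 50.3 and 77.9 reads and chr2:52212580-52212697 with 64.5 and 46.2. The sites ranked 49 to 65 by miR-1a-3p reads each held under 1 such read over both libraries.

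The miR-23 and miR-27 families, which are made from shared gene clusters, had separate main sites on Neb. At chr2:52303629-52303725, miR-23a-3p held 66.7 and 89.3 reads and miR-23b-3p 41.8 and 56.8, beside 67.8 and 91.8 of miR-133a-3p. This site held 61.1% and 63.6% of the miR-23 reads of the gene. At chr2:52308689-52308791, miR-27a-3p held 35.4 and 51.8 reads and miR-27b-3p 18.6 and 15.5, beside miR-133a-3p with 41.9 and 100.02. The let-7 family had its main site at chr2:52306532-52306631, where it supplied 76.7% of 76.2 reads in MOV control and 69.3% of 98.4 in MOV mimic, spread over members that share the seed GAGGUAG. These 3 sites lay 35.1, 30.1 and 32.2 kb from the 5′ end.

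**Figure D2:**
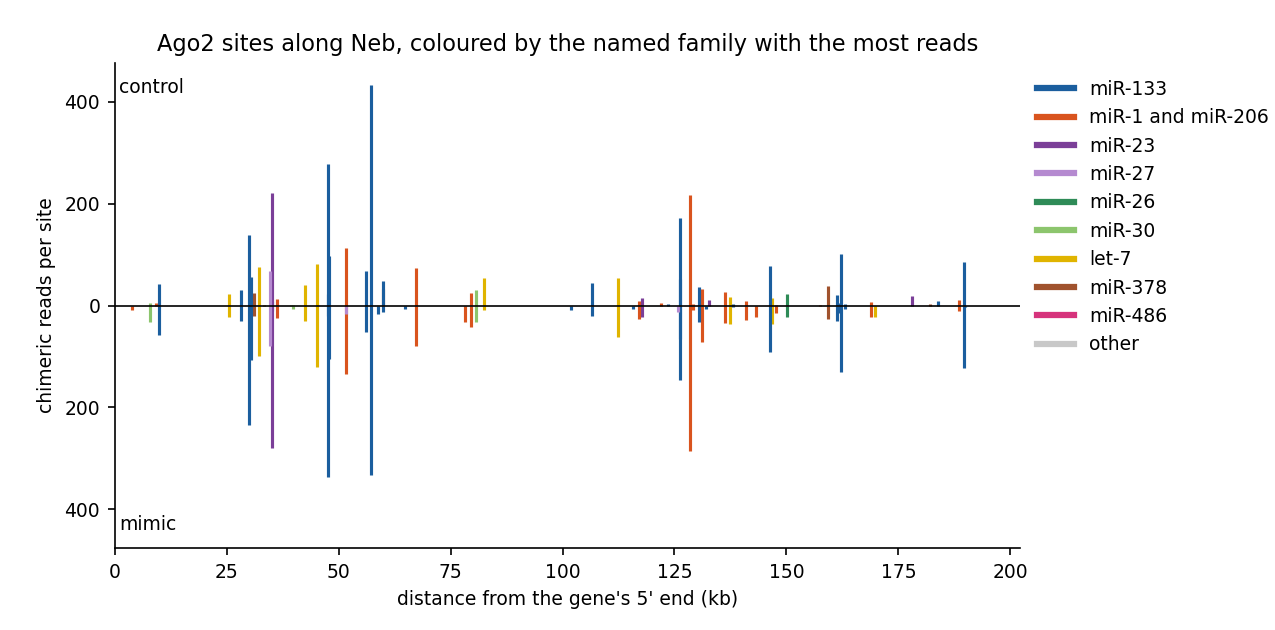
Chimeric reads per site (vertical axis, control upward and mimic downward) against the distance from the 5′ end of Neb in kb, with each of the 77 sites as a line coloured by the named family with the most reads there. By reads over both libraries, the leading sites of miR-133 (433 and 332 reads) and of miR-1 and miR-206 (218 and 287 reads) lie apart. The miR-23 site (222 and 279 reads) lies near the 5′ end.

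Mybpc1, on the minus strand at chr10:88518279-88605229, held 529.7 reads in MOV control (486 to 577) and 756 in MOV mimic (703 to 812), from 74 and 91 miRNAs. The miR-30 family held 23.8% of the MOV control reads (20.2 to 27.6) and 19.9% of the MOV mimic reads (17.1 to 22.9), against 2.95% and 2.87% over the other nuclear entries. The miR-26 family held 17.0% (13.9 to 20.5) and 9.64% (7.65 to 11.99), against 3.99% and 4.09%. Among the 171 nuclear genes with at least 100 reads in each library, Mybpc1 was 5th in MOV control and 7th in MOV mimic by its miR-30c-5p share, and 11th and 18th by its miR-26a-5p share. On Neb the miR-30 family held 2.80% and 3.09%, and on Myom2 2.31% and 1.64%.

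The miR-26 reads of Mybpc1 lay almost all at 1 site, and the miR-30 reads mainly at a pair of sites. At chr10:88551445-88551551, miR-26a-5p had 66.7 reads in MOV control and 52.3 in MOV mimic and miR-26b-5p had 19.5 and 14.7, which together were 95.9% and 92.03% of the miR-26 reads on the gene. The whole site held 120.3 reads in MOV control and 143 in MOV mimic, and miR-133a-3p supplied 14.5 and 26.6 of them. At chr10:88524999-88525100, 80.2 kb from the 5′ end, 5 members of the miR-30 family were found together. miR-30c-5p held 34.2 and 32.2 reads there, miR-30a-5p 20.6 and 31.3, miR-30b-5p 14.8 and 20.2, miR-30e-5p 16.1 and 8.73, and miR-30d-5p 14.5 and 5.99. The miR-30 family supplied 90.1% of the site in MOV control and 88.6% in MOV mimic, and the site had almost the same reads in both, 111.3 and 111.1. No other named family passed 5 reads at this site in either library. Of the miR-30 reads on the gene, 79.6% in MOV control and 65.5% in MOV mimic lay there. The other miR-30 site, chr10:88555620-88555737, held 28.5 reads in MOV control and 60.2 in MOV mimic, and the family supplied 60.3% and 53.5% of them. miR-30c-5p was again the leading member, with 13.7 and 20.2 reads. A miR-133 site, chr10:88558572-88558631, had 25.4 and 15.3 reads of miR-133a-3p and 12.1 and 8.19 of miR-133b-3p. Over the whole gene miR-133b-3p had 29.8 and 27.0 reads and miR-206-3p 20.5 and 26.4.

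The miR-1a-3p reads of Mybpc1 came mainly from chr10:88577908-88578060 in MOV control. This site held 39.1 miR-1a-3p reads in MOV control and 38.2 in MOV mimic, with 4.73 reads and 1 read of miR-206-3p. Away from it, the gene had 7.80 miR-1a-3p reads in MOV control and 63.2 in MOV mimic. Of the latter, 40.1 lay in 8 sites that had a peak in MOV mimic only. The largest of these, named after its value was seen, was chr10:88531749-88531809 with 42.9 reads, 19.9 of them of miR-1a-3p. Absence of a peak says only that none was called in that library.

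Mybpc2, on the minus strand at chr7:44501699-44524715, had the fewest sites, 12, of which 10 had a peak in both libraries. It held 219 reads in MOV control (191 to 250.0) and 286 in MOV mimic (254 to 321), from 39 and 44 miRNAs. The leading 5 sites held 79.7% of the reads. miR-133a-3p held 56.4% of the MOV control reads (49.3 to 62.8) and 47.6% of the MOV mimic reads (41.6 to 53.5), and the gene was 10th and 20th among the 171 genes by this share. Its clearest miR-133 site, chr7:44516390-44516506, had 51.6 miR-133a-3p reads of 59.0 in MOV control and 37.2 of 54.4 in MOV mimic, and miR-133b-3p supplied 5.48 and 8.30 more.

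A second Mybpc2 site, chr7:44505571-44505687, joined miR-133 with miR-378, a miRNA encoded in an intron of Ppargc1b. miR-133a-3p held 25.4 and 35.6 reads there and miR-378a-3p 10.5 and 14.8. The miR-378 family had 86.7% and 84.0% of its Mybpc2 reads at this site. A neighbouring site, chr7:44506141-44506248, held 33.4 reads in MOV control and 57.6 in MOV mimic, of which miR-133a-3p supplied 19.8 and 41.8. At chr7:44505310-44505389, with 16.4 and 26.7 reads, the let-7 family supplied 48.9% and 26.2%. The miR-1a-3p reads lay mainly at chr7:44508991-44509045, with 10.8 of 13.2 reads in MOV control and 19.9 of 25.8 in MOV mimic. No miR-26 entry was found on Mybpc2, and miR-30 had 1.11 and 6.16 reads, in contrast to Mybpc1. Over the whole gene miR-133b-3p had 15.9 and 22.5 reads and miR-206-3p 4.29 and 5.15.

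Of the M-band genes, Myom2 on the plus strand at chr8:15057653-15133420 held 384 reads in MOV control (347 to 424) and 469 in MOV mimic (428 to 513). miR-133a-3p alone held 60.5% of the MOV control reads (55.6 to 65.6) and 65.6% of the MOV mimic reads (61.2 to 70.0), which placed Myom2 5th and 4th among the 171 genes. The site chr8:15110766-15110869 was almost a pure miR-133 site. miR-133a-3p had 105 of 112 reads in MOV control, and the other 7 were of miR-133b-3p. In the mimic, miR-133a-3p had 101 of 114 reads and miR-133b-3p 11.99. Among nuclear peaks of at least 50 reads, 507 in MOV control and 573 in MOV mimic, this peak was 2nd and 8th by the share of its leading miRNA. The median share of the leading miRNA over those peaks was 50.9% and 52.7%.

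A second miR-133 site of Myom2, chr8:15102515-15102656, held 54.6 reads in MOV control (41.4 to 71.6) and 108 in MOV mimic, with miR-133a-3p at 43.4 and 90.98. Its ratio of 1.97 (1.43 to 2.83) lay above that of the libraries, while the stronger site had a ratio of 1.02 (0.777 to 1.33). At chr8:15117634-15117737, miR-133a-3p with 14.9 and 24.3 reads was accompanied by miR-128-3p with 6.99 and 6.30. At chr8:15084458-15084527, miR-133a-3p had 17.9 and 26.9 reads and miR-133b-3p 3.81 and 5.39. miR-1a-3p was a minor miRNA on Myom2, with 4.49% and 4.60% of the reads. Of these reads, 15.2 of 17.3 in MOV control and 17.5 of 21.6 in MOV mimic lay at chr8:15108771-15108869. miR-133b-3p had 26.5 and 38.3 reads on the gene, miR-22-3p 19.5 and 11.9, and miR-206-3p 12.7 and 9.06.

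Myom1, on the plus strand at chr17:71003332-71126856, had more sites than Myom2, 37 against 27, with fewer reads in all. It held 229 reads in MOV control (200.3 to 261) and 271 in MOV mimic (239.7 to 305), and 15 of its sites had a peak in both libraries. The sites with a peak in both held 81.7% of the MOV control reads and 91.9% of the MOV mimic reads. miR-133a-3p held 24.4% of the MOV control reads (19.0 to 30.5) and 16.8% of the MOV mimic reads (12.7 to 21.98), and miR-1a-3p held 11.6% and 14.6%. The main miR-1a-3p site, chr17:71106212-71106345, had 13.1 miR-1a-3p reads of 31.0 in MOV control and 18.7 of 43.1 in MOV mimic, beside miR-21a-5p with 4.90 and 5.95.

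miR-486b-5p, a miRNA encoded in the Ank1 gene, held a larger share of the reads on Myom1 than on any other of the 5 genes. It held 5.56% of the MOV control reads (3.06 to 9.51) and 11.4% of the MOV mimic reads (7.91 to 15.8), against 0.336% and 0.400% over the other nuclear entries, and Myom1 was 2nd of the 171 genes by this share in both libraries. Of these reads, 86.4% and 82.8% lay at 1 site, chr17:71084284-71084425, with 11.01 of 20.5 reads in MOV control and 25.6 of 38.3 in MOV mimic. Neb held 21.3 and 20.4 miR-486b-5p reads, which were 0.649% and 0.521% of the Neb reads. Of those, 58.6% and 56.9% lay at chr2:52291137-52291306. miR-378a-3p had its main Myom1 site at chr17:71022883-71022984, with 9.07 and 5.40 reads, beside 6 and 9.33 of miR-133a-3p. miR-27b-3p led at chr17:71064454-71064636 with 4.81 and 5.14 reads. At chr17:71087445-71087572, miR-133a-3p held 5.95 of 19.9 reads in MOV control and 17.1 of 32.0 in MOV mimic, and miR-206-3p held 6 and 1.97. On the whole gene miR-206-3p had 13.0 and 9.36 reads, miR-133b-3p 11.3 and 8.45, and miR-26a-5p 10.04 and 13.8.

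**Figure D3:**
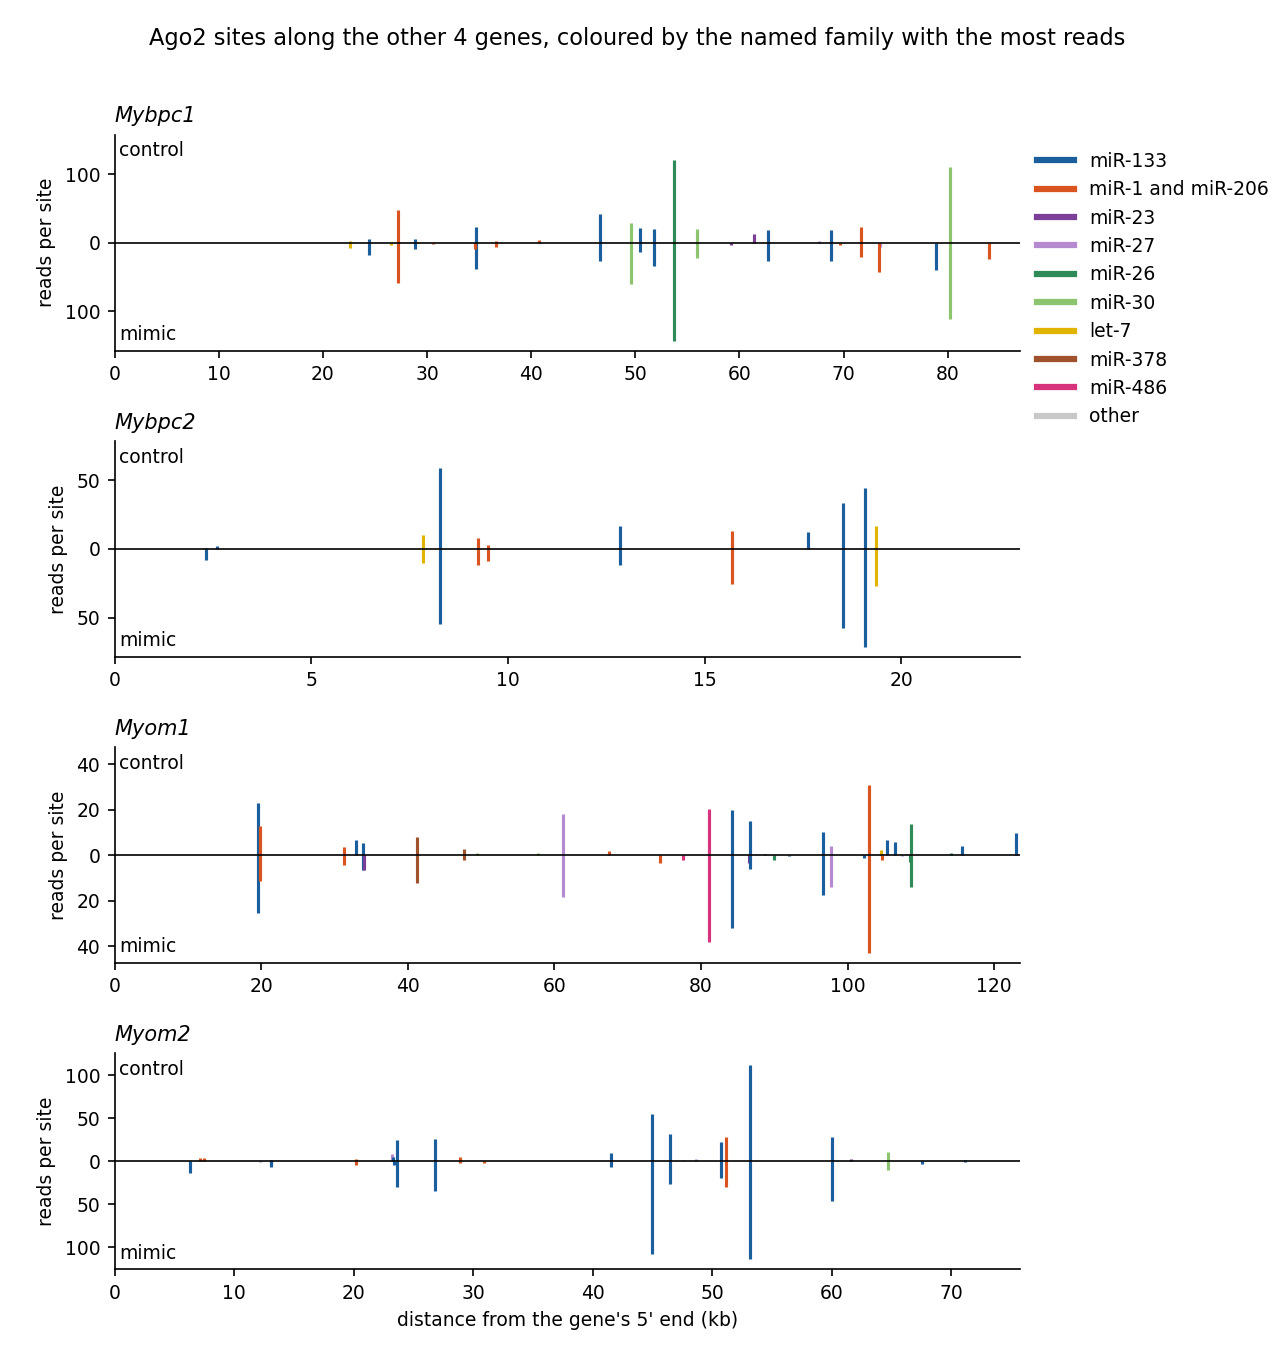
Chimeric reads per site (vertical axes, control upward and mimic downward, a scale for each gene) against the distance from the 5′ end in kb on Mybpc1, Mybpc2, Myom1 and Myom2, coloured by the named family with the most reads. Mybpc1 has its miR-26 site at 53.7 kb and its miR-30 site at 80.2 kb, Myom2 is mostly miR-133, and Myom1 has its miR-486 site at 81.0 kb.

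**Figure D4:**
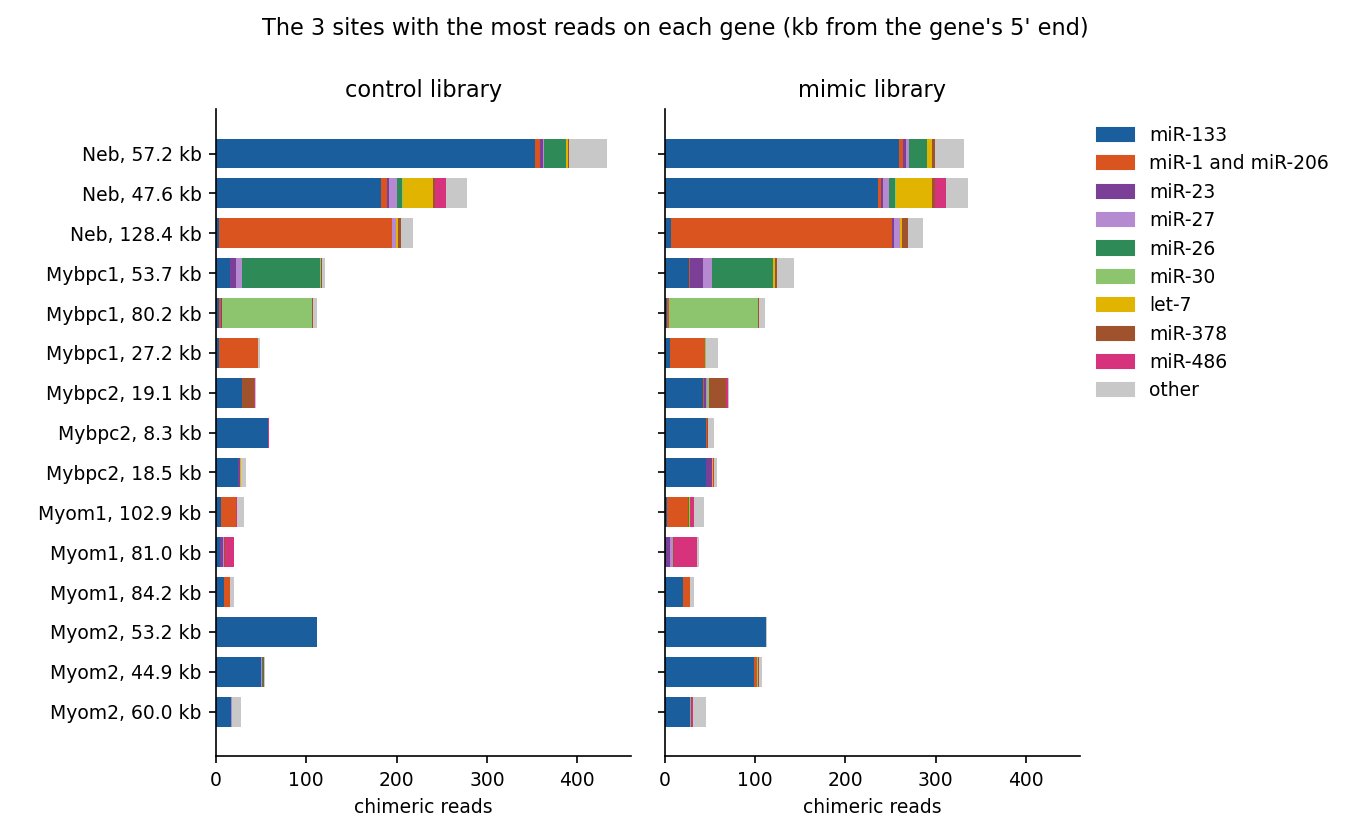
Chimeric reads (horizontal axis) at the 3 sites with the most reads on each gene, split by miRNA family, with the control library at the left and the mimic library at the right. Each site is named by its distance from the 5′ end, and sites of 1 family (Myom2 at 53.2 kb, Mybpc1 at 80.2 kb) stand beside sites shared by several.

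The reads also differed in where they fell along the genes. The 5′ part of the Neb span, up to its midpoint, held 65.6% of the MOV control reads and 62.7% of the MOV mimic reads. For the other genes it held less, with 17.4% and 20.3% for Mybpc1, 20.9% and 22.5% for Myom2, 37.6% and 32.6% for Mybpc2 and 36.1% and 32.2% for Myom1. These are positions in the genomic span with introns included, and the exon or UTR of each site was not analysed here.

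The letters that pair with a seed were counted in the longest GENCODE transcript of each gene, in the sense direction and without regard to the peaks. The motif GGACCAA, which pairs with the seed of miR-133b-3p, was found 2 times in the coding sequence of Mybpc2 and 2 times in that of Myom2, and not in the transcripts of Neb, Mybpc1 and Myom1. Of 18434 genes with a transcript of at least 1000 bases, 20.6% held it. TGTTTAC, for miR-30a-5p, was found 1 time in the coding sequence of Mybpc1, 1 time in the coding sequence and 1 time in the 3′ UTR of Neb, and not in the other genes, against 19.4% of all genes. TACTTGA, for miR-26a-5p, was found only in Mybpc2, with 1 match, against 14.8% of all genes. ACATTCC, for miR-206-3p, was found only in Myom1, with 1 match, against 19.3%. AATGTGA, for miR-23a-3p, was found in all 5 genes, with 1 match in Neb and 3 in Myom1, against 26.3%. These percentages are over transcripts of all lengths from 1000 bases and were not matched for length. Per kb, AATGTGA had 0.0445 matches in Neb, below the mean of 0.112 over all genes. In the other genes it ran from 0.255 (Mybpc1) to 0.536 (Myom1). Matches and chimeric reads did not always go together. Mybpc1, with 90.0 and 72.9 miR-26 reads, had no TACTTGA, and Mybpc2, with the match, had no miR-26 entry. Neb had neither GGACCAA nor ACATTCC but held miR-133 and miR-206 reads. Conversely, GGACCAA was in Mybpc2 and Myom2, which had the highest miR-133 shares, and TGTTTAC in Mybpc1, with the highest miR-30 share. Neb also held TGTTTAC, but its miR-30 share of 2.80% and 3.09% was near the 2.95% and 2.87% of the other nuclear entries. A match is a description of these letters and not a site.

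Between the libraries, the 5 genes held more reads in MOV mimic by 1.18 to 1.43 times. The ratio was 1.43 for Mybpc1 (1.27 to 1.60), 1.31 for Mybpc2 (1.09 to 1.56), 1.22 for Myom2 (1.06 to 1.40), 1.19 for Neb (1.14 to 1.25) and 1.18 for Myom1 (0.989 to 1.42). The intervals of Neb and Mybpc1 lay above the ratio of all chimeric reads, 2 of 5 genes, and none lay below it. Among the 180 genes with at least 100 reads in each library, 19.4% lay above and 22.8% below. The median ratio of the 5 genes was 1.22 and that of the 180 genes 1.08. Over sites with a peak in both libraries, Mybpc1 had a ratio of 1.22 (1.09 to 1.38) and no longer lay above, Mybpc2 had 1.40 (1.16 to 1.68) and did, and Neb had 1.17 (1.12 to 1.23) and stayed above.

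miR-1a-3p, which the mimic supplies, had ratios of 2.23 on Mybpc2 (1.24 to 4.12), 2.16 on Mybpc1 (1.51 to 3.11), 1.49 on Myom1 (0.916 to 2.63), 1.46 on Neb (1.28 to 1.67) and 1.25 on Myom2 (0.656 to 2.60). On 3 of the 5 genes the interval lay above the ratio of all chimeric reads, and on none below. Of the 232 genes with at least 10 miR-1a-3p reads in each library, 14.7% lay above and 3.88% below, and 73.7% had a ratio above 1. Against the miR-1a-3p ratio of the whole libraries, 1.31 (1.29 to 1.33), only Mybpc1 among the 5 genes lay above, with 8.19% of the 232 genes. That of Mybpc1 depended on the sites counted, since it was 1.31 (0.873 to 1.94) over sites with a peak in both libraries and 8.10 (3.76 to 19.0) without its main miR-1a-3p site. miR-206-3p, with the same seed, had ratios of 0.973 on Neb (0.801 to 1.17) and 1.29 on Mybpc1 (0.670 to 2.31). With fewer reads it had 1.20 on Mybpc2 (0.269 to 6.30), 0.720 on Myom1 (0.261 to 1.75) and 0.714 on Myom2 (0.261 to 1.75). On the 5 genes together its ratio was 0.976 (0.821 to 1.16), near its whole-library ratio of 0.947 (0.925 to 0.968). miR-1a-3p had 1.55 (1.38 to 1.74) on the 5 genes together.

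Over all miRNAs, 55 pairs of a gene and a miRNA had at least 10 reads in each library. The interval lay above the ratio of all chimeric reads in 10 of the 55 and below it in 0, against 8.58% and 7.86% of the 1795 such pairs in the libraries. On Neb these were miR-22-3p with 1.87 (1.20 to 2.83), miR-378a-3p with 1.62 (1.13 to 2.38), miR-27a-3p with 1.59 (1.18 to 2.16) and miR-1a-3p. On Mybpc1 they were miR-1a-3p, miR-30a-5p with 1.98 (1.13 to 3.32) and miR-133a-3p with 1.51 (1.16 to 1.96), and on Mybpc2 miR-1a-3p. Myom1 had miR-486b-5p with 2.43 (1.21 to 4.97) and Myom2 had miR-133a-3p with 1.32 (1.12 to 1.58). Over sites with a peak in both libraries 5 of the 10 stayed above, namely miR-1a-3p and miR-22-3p on Neb, miR-30a-5p on Mybpc1, miR-1a-3p on Mybpc2 and miR-486b-5p on Myom1. miR-133a-3p itself had ratios from 0.817 on Myom1 (0.553 to 1.26) to the 1.51 of Mybpc1. Over the whole libraries the ratios were 1.22 for miR-133a-3p, 1.31 for miR-378a-3p, 1.33 for miR-486b-5p and 1.15 for miR-30a-5p. Against these, none of the intervals given here for those miRNAs lay above. That of miR-22-3p on Neb, 1.20 to 2.83, lay narrowly above its whole-library ratio of 1.19. For miR-27a-3p the comparison was made for the miR-27 family, which had a ratio of 1.03 over the other nuclear entries. On Neb the miR-27 family had 1.36 (1.08 to 1.71), which lay above that.

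**Figure D5:**
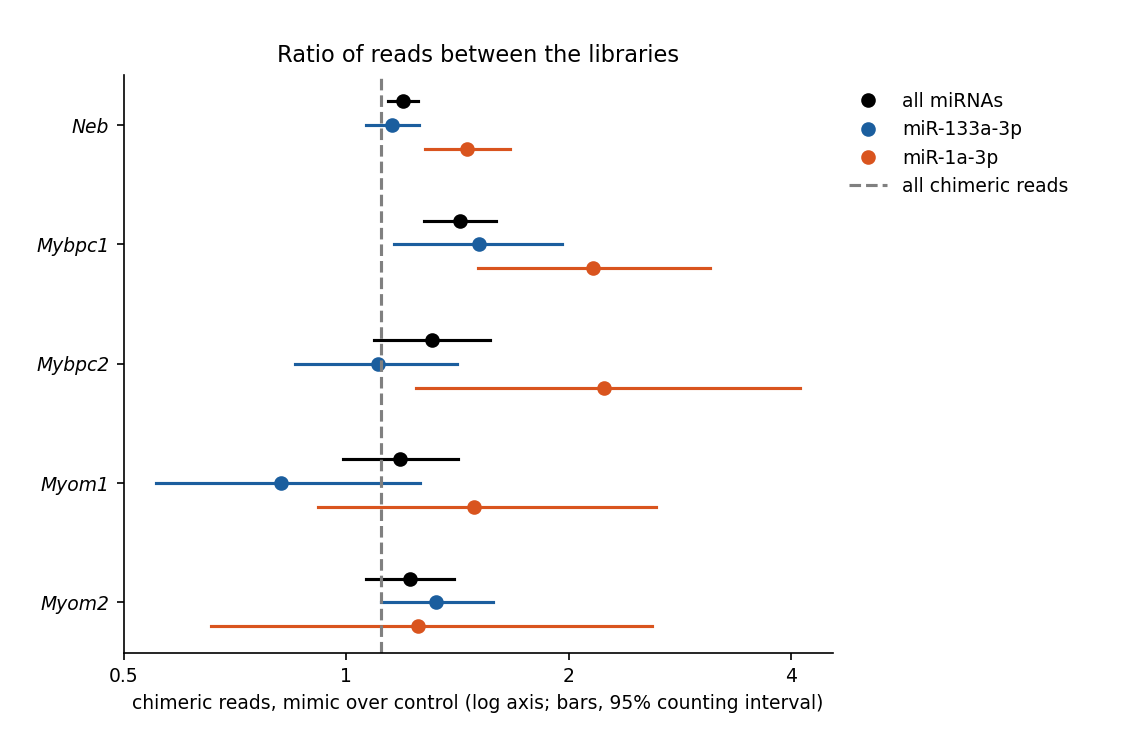
Ratio of mimic to control reads (horizontal log axis) for each gene over all miRNAs, miR-133a-3p and miR-1a-3p, with points for the ratio, bars for the 95% counting interval and a dashed line at the ratio of all chimeric reads, 1.12. The miR-1a-3p intervals of Neb, Mybpc1 and Mybpc2 lie to the right of the line, and those of Myom1 and Myom2 cross it.

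Other genes of the sarcomere were taken from a list of 26, of which 25 had a RefSeq span and 22 had entries in both libraries. miR-133a-3p led on 15 of the 22 and miR-1a-3p on 2. Over all 180 genes with at least 100 reads in each library, 171 of them nuclear, they led on 84 and 38. The 22 had no such minimum, with Trim54 at 0.0985 and 3.58 reads, so these counts cannot be compared directly. Cardiac myosin binding protein C (Mybpc3) and nebulette (Nebl), known from heart muscle, had no entry in either library. Titin (Ttn) held 164 and 221 reads per kb, above Neb with 146 and 174, at a ratio of 1.35 (1.32 to 1.37). Of the other listed genes, 5 held more reads in all than Myom1, the member with the fewest. These were muscle creatine kinase (Ckm) with 1639 and 1975 reads, Fhl1 with 601 and 704, Klhl41 with 380 and 447, Cmya5 with 244 and 342, and Nrap with 254 and 275. miR-133a-3p led on Ckm, Fhl1 and Nrap, miR-26a-5p on Klhl41 and miR-24-3p on Cmya5. Of the 7 listed genes with at least 100 reads in each library, 3 had a ratio interval above that of all chimeric reads and 0 below, with a median ratio of 1.18. Over the 180 genes, 19.4% lay above and 22.8% below, with a median ratio of 1.08.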

How the data were processed

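Chimeric eCLIP-seq was measured in 4 samples of mouse plantaris, of which peak files were used for MOV control and MOV mimic, and both input libraries are not analysed here. As deposited, each line gave an estimated count of the chimeric reads that 1 miRNA had in 1 peak, which the authors did not scale to depth. Most were fractions, whose origin was not given in the sources used here. The methods describe adapter trimming, removal of repetitive elements, STAR alignment, removal of PCR duplicates and CLIPper peaks. The submitters' processing notes list UMI-tools 1.1.1, cutadapt 3.2, STAR 2.7.7a, Bowtie 1.2.3 and HOMER 4.11. The methods name mm9 and the notes mm10. Of the peaks, 99.0% in each library lay in a RefSeq gene of GRCm38, and that build was used. Since cDNA was also amplified with a primer for miR-1 according to the methods, the shares of miRNAs are those of the files and need not be those of the muscle.

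Entries were taken by an overlap of at least 1 base with the RefSeq span (GRCm38.p6) on the strand of the gene, and no entry lay on the opposite strand. Strand came from RefSeq promoters for Mybpc1, Mybpc2 and Myom1 and by name from GENCODE vM1 for Neb and Myom2. The genome given was mm9, so no sequence was read by coordinates. Overlapping peaks of both libraries were chained into sites. Read numbers were rounded for exact Poisson, Clopper-Pearson and conditional binomial intervals (Python 3.11.15, scipy 1.17.1), which cover counting error only. The ratio intervals were checked on simulated Poisson counts, the model that they assume. That check could not show how they hold for fractional read numbers. A change was called where the interval of a ratio excluded that of the library totals, for pairs with at least 10 and genes with at least 100 reads in each library. For each gene the text names the 5 miRNAs and 5 sites with the most reads, miR-1a-3p, miR-206-3p, miR-133a-3p and miR-133b-3p, leading families with their main sites, and called pairs. Alternatives covered the minimum reads of an entry, depth, overlap, strand, miRNA names and single sites. 1 gene of the sarcomere list is not reported here. The genes, the sarcomere list and the rules were chosen with earlier results of these data known.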

Additional observations from a re-analysis of the deposited data

How the results depend on the processing

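No paired analysis was possible because there was a single library in each group. Of the 145 values recomputed under an alternative, 95 lay inside the counting interval of the main value, or for counts within 1.5 times of it, and 50 lay outside. Of the 95, 5 took entries of either strand and 10 required at least 50% of the peak inside the span. These kept the same entries, so they could not differ from the main value. Of the ratios, 0 changed direction, while shares and numbers of miRNAs have no direction to change. Divided by library totals, the Neb ratio was 1.07, and it was 1.06 with mitochondrial and Rn18s-rs5 reads left out, where that of Mybpc1 was 1.27. Without its site with the most reads over both libraries the Neb ratio was 1.26. Over sites with a peak in both libraries, chosen as an alternative after seeing the data, the Mybpc1 ratio was 1.22 and its miR-1a-3p ratio 1.31, and without its main miR-1a-3p site, also chosen then, the latter was 8.10. Counted over entries in place of reads, the miR-1a-3p share was 5.10% (control) and 5.25% (mimic) on Neb, 3.92% and 5.12% on Mybpc1, 5.98% (mimic) on Mybpc2, and 5.08% and 7.33% on Myom1. With entries of at least 3 reads it was 16.7% (mimic) on Neb, and 18.2% and 21.8% on Myom1. Summed with miR-206-3p it was 18.5% and 19.8% on Neb, 12.7% and 16.9% on Mybpc1, 17.3% (control) on Myom1 and 7.79% (control) on Myom2. The number of miRNAs depended most on small entries. With entries of at least 1 read there were 87 and 79 on Neb, 27 and 54 on Mybpc1, 17 and 24 on Mybpc2, 29 (control) on Myom1, and 29 and 27 on Myom2. With at least 3 reads there were 33 and 31 on Neb, 15 and 20 on Mybpc1, 7 and 7 on Mybpc2, 8 and 10 on Myom1, and 9 and 7 on Myom2. The share of control reads in peaks overlapped in the mimic was 91.5% on Neb, 79.6% on Mybpc1 and 70.7% on Myom1 where at least 50% of each peak had to overlap, and 90.2% on Neb, 89.8% on Mybpc1, 84.7% on Mybpc2, 69.4% on Myom1 and 85.6% on Myom2 where the miRNA had to be the same. Depth limited each of the 5 genes, since most of its miRNAs had under 10 reads in a library.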
